A study of Mus musculus with 3 samples.

Results

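Cxcr4 and Aplnr encode G-protein coupled receptors of migrating cardiovascular cells. Both genes lie near ChIP-seq peaks of the T-box transcription factor TBX1 in the mouse embryo, called in 2 replicates at Cxcr4 and in 1 at Aplnr. All TBX1 ChIP-seq peaks and consensus regions within 500 kb of either gene body were collected. This gave 3 of the 1088 deposited peaks, which joined into 2 of 711 peak regions, and 2 of the 255 consensus regions. The genes were proposed because earlier results had shown regions beside them. That a region lies there is therefore how they were chosen and not a result, and no test is attached to any value of these peaks.

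The ChIP-seq was performed in whole mouse embryos at E9.5, with 1 condition and 3 replicates of 20 pooled embryos each. The embryos were of mixed strain and double homozygous for Tbx1 3'-Avi, in which a short peptide tag follows the end of TBX1, and for BirA, a biotin ligase expressed from the ROSA26 locus that biotinylates the tag. Tagged TBX1 was captured with its chromatin on streptavidin, and input chromatin was the background for peak calling. No embryos without the tag were analysed here. Tbx1 is active in only some cells of the embryo, so in whole embryos a low enrichment from binding in few cells cannot be told apart from weak binding in many. The lists of replicates 1, 2 and 3 held 146, 646 and 296 peaks, with median fold enrichments of 6.51, 6.25 and 6.14. The fold enrichment is the ratio of ChIP signal over local background at the summit, the highest point of a peak, and the q-value is the adjusted p-value of the peak caller, given here as −log10 q.

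CXCR4 is the receptor of the chemokine CXCL12, and ligand binding signals through inhibitory G proteins to steer cells along a gradient. In the embryo this pair guides neural crest cells, endothelial cells and cells of the forming arteries, and loss of either partner disturbs the heart and large vessels. APLNR is the receptor of the peptides apelin and ELABELA, the latter encoded by Apela, and is known for the migration of cardiac progenitors to the heart-forming region and for the development of veins. Tbx1 is expressed in the pharyngeal mesoderm, from which the second heart field contributes cells to the heart, as well as in pharyngeal endoderm. Binding was measured here, and the transcript levels of the receptors were not.

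The sequences of the receptor regions are given because the words they hold are compared further on. Both were read from mm9 on the plus strand, 5′ to 3′. Capitals mark words found on either strand. The T-box words searched for were GGTGTGA and the shorter form GGTGT that is part of it, with TGACAG listed beside them. The PBX word was TGATTGAT. A pair of shorter T-box words was added, which were GTGTGA and the related AGGTGA. The Cxcr4 sequence is the whole consensus region at chr1:130536278-130536557, and the Aplnr sequence is the replicate 2 peak at chr2:84980340-84980616.
Cxcr4 consensus region: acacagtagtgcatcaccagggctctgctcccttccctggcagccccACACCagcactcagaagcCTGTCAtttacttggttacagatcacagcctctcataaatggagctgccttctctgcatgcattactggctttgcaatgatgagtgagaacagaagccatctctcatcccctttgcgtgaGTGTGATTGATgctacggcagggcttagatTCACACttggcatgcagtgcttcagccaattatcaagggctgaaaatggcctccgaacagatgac
Aplnr replicate 2 peak: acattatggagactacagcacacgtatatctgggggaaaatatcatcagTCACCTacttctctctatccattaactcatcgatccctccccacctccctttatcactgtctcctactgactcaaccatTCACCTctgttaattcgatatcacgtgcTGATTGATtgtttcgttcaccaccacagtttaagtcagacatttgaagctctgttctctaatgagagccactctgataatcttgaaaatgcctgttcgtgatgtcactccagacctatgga

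Cxcr4 (ENSMUSG00000045382.6) spans chr1:130484776-130488870 on the minus strand, with 2 exons. A single peak region lay within 500 kb of it, 47.4 kb upstream of the gene. In the list of replicate 2 the peak covered 205 bp (chr1:130536292-130536496), with a fold enrichment of 7.82 and a −log10 q of 10.2 (q = 6.83e-11). In the list of replicate 3 it covered 172 bp (chr1:130536386-130536557), with a fold enrichment of 6.07 and a −log10 q of 5.96 (q = 1.09e-06). The list of replicate 1 had no peak there, and its nearest peak was 37.1 Mb from Cxcr4.

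The Cxcr4 site was thus found in 2 of 3 lists. Fold enrichments are not comparable between lists, so each peak was ranked within its own list. By fold enrichment the peak stood at rank 163 of 646 in replicate 2 and at rank 153 of 296 in replicate 3. As percentiles, with 100 the strongest, these were 73.7 and 46.3, a mean of 60.0 ± 19.4 (SD, n = 2 lists). By −log10 q the percentiles were 67.3 and 37.2. The site was therefore above the median of replicate 2 by both measures, and below the median of replicate 3 by both. Fold enrichments took few distinct values, 308 among the 646 peaks of replicate 2, and 16 peaks of that list shared the value at Cxcr4.

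The peaks of replicates 2 and 3 overlapped at Cxcr4 but were offset. They shared 111 bp, which was 54.1% of the replicate 2 peak and 64.5% of the replicate 3 peak, and their summits were 95 bp apart. Across the 201 consensus regions with peaks in both lists, the median distance between summits was 31 bp, with quartiles of 13 and 56 bp. In 16 of these regions (7.96%), Cxcr4 included, the summits were at least as far apart as at Cxcr4.

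Between genes, the Cxcr4 region lay in a long stretch without annotated protein-coding sequence. On the far side from Cxcr4 the next gene was Gm17699, a long intergenic non-coding RNA gene 131 kb away, and the next protein-coding gene was Thsd7b, 633 kb away. No annotated gene covered the region. The window of 500 kb held 6 other protein-coding genes, all on the other side of Cxcr4 from the peaks, as the map of both loci shows. No peak of any list lay within 1 kb of the Cxcr4 start site or inside the gene. The first peak beyond the window lay inside Nckap5, 1.77 Mb from Cxcr4, and was called in replicate 2 alone with a fold enrichment of 7.54, outside the consensus list.

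**Figure D1:**
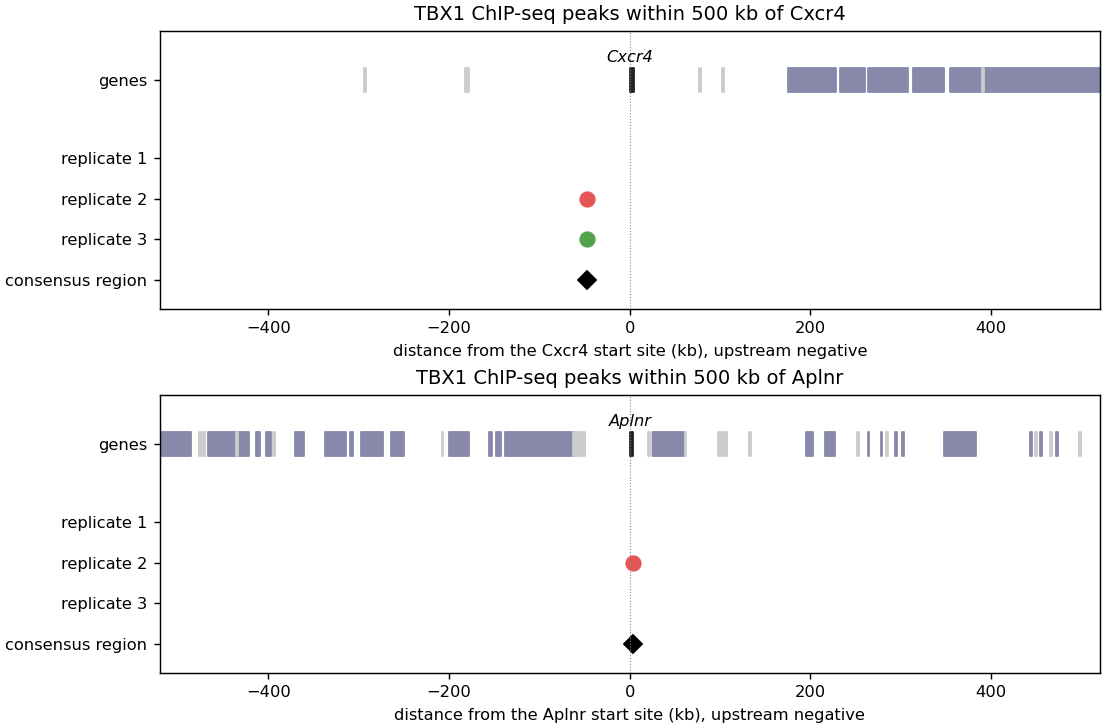
TBX1 ChIP-seq peaks and consensus regions within 500 kb of Cxcr4 (top) and Aplnr (bottom), by distance from the start site in kb with upstream to the left; circles are peak summits of each replicate, diamonds are consensus regions, and bars are genes (black, the named receptor; blue-grey, other protein-coding genes; light grey, other genes). Cxcr4 has summits of replicates 2 and 3 at 47.5 and 47.6 kb upstream, Aplnr has a peak of replicate 2 beside the gene, and replicate 1 has none at either.

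Aplnr (ENSMUSG00000044338.7) spans chr2:84976517-84980079 on the plus strand as a single exon. Its only peak within 500 kb began 261 bp beyond the annotated 3′ end of the gene, in intergenic sequence outside the annotated UTR. The peak was called in replicate 2 alone, over 277 bp, with a fold enrichment of 4.40 and a −log10 q of 3.86 (q = 0.000137). Replicates 1 and 3 had no peak at the site, and in both lists the nearest peak to Aplnr was 8.35 Mb away, at a site whose nearest protein-coding gene was Cd82. The Aplnr site was found in 1 of 3 lists and had the lower enrichment of the 2 receptor loci within the list of replicate 2.

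Within that list the Aplnr peak stood at rank 524 of 646 by fold enrichment and at rank 553 by −log10 q, which are the 18.8th and 14.3rd percentiles. Its q-value failed a threshold of 1e-05, under which Aplnr had 0 peaks within 500 kb, as it had without replicate 2. The summit lay 3.90 kb from the start site, and no peak of any list was within 1 kb of that start site or inside the gene. On the far side of the region the next gene was the pseudogene Gm13712 at 15.6 kb, and the next protein-coding gene was Lrrc55, a gene for a leucine-rich repeat protein, at 21.9 kb. The neighbourhood was denser than that of Cxcr4, with 30 other protein-coding genes within 500 kb, and Aplnr was the nearest of them to the region. Olfactory receptor genes made up 13 of the 45 other genes of all types in the window. The next peak region beyond the window was the site near Cd82, found in replicates 1 and 3 with fold enrichments of 5.64 and 5.69 and yet outside the consensus list.

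**Figure D2:**
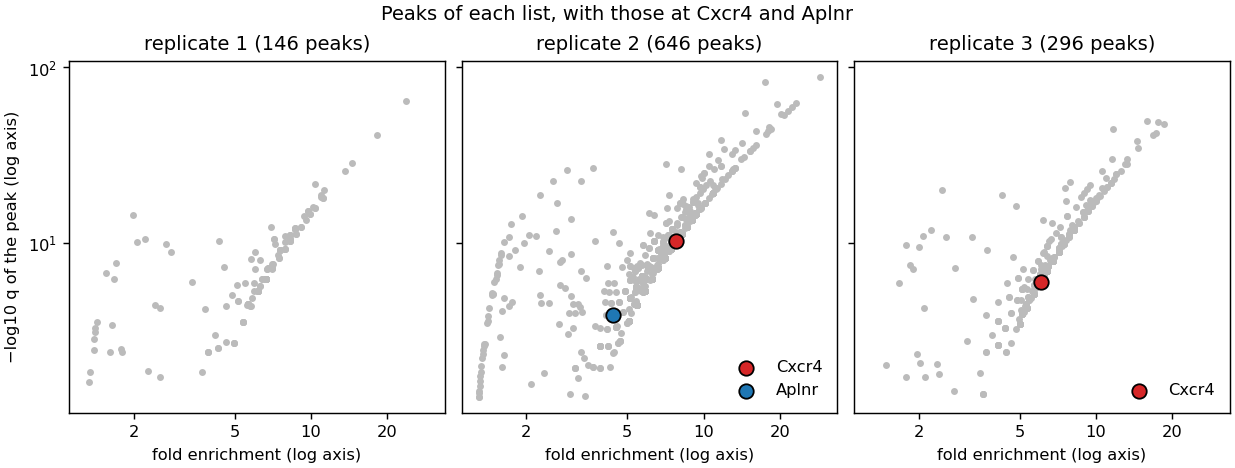
Fold enrichment (x axis, log scale) against −log10 q (y axis, log scale) of every peak, 1 panel per replicate, with the peaks at Cxcr4 in red and Aplnr in blue. The Cxcr4 peak lies at 7.82 and 10.2 in replicate 2 and at 6.07 and 5.96 in replicate 3, inside the main band of peaks, and the Aplnr peak lies at 4.40 and 3.86, at the lower end of that band.

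The consensus list holds regions the authors kept as common to at least 2 replicates, yet the Aplnr region (chr2:84980335-84980635) overlapped a deposited peak of replicate 2 alone. It was not the only such region. Of 255 consensus regions, 87 overlapped peaks of all 3 lists, 114 those of replicates 2 and 3 alone, and 25 those of replicate 2 alone, while 38 (14.9%) overlapped fewer than 2 lists and 3 of these overlapped none. The limits of the consensus regions also differed from those of the deposited peaks, and 0 of 255 had both ends at peak ends. The Cxcr4 region began 14 bp before the first peak there and ended with the replicate 3 peak, and the Aplnr region reached 5 bp and 19 bp beyond its peak. An overlap of at least 2 of the deposited lists could not give the 38 regions. From which peak calls the consensus list was made was not tested. The study's text gives other numbers of peaks per replicate than the deposited lists hold. The list with most peaks is also under another replicate number there, so replicate numbers here are those of the deposited lists' labels and may differ from the study's.

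Each receptor region was set beside the regions with peaks in the same lists. Among the 114 regions with peaks of replicates 2 and 3 alone, 55 had a lower percentile than Cxcr4 in replicate 2 and 46 had a lower percentile in replicate 3, so the Cxcr4 region stood near the middle of them. The absence from replicate 1 was common too, since 87 of the 201 regions with peaks of replicates 2 and 3 (43.3%) also had one of replicate 1. Among the 25 regions with a peak of replicate 2 alone, 4 had a lower fold enrichment than the Aplnr peak, and the median was 6.22 with a range of 2.56 to 8.60. The Aplnr peak thus lay toward the lower end of its own class. Outside the consensus list, 345 further peak regions were found in replicate 2 alone, and none of them lay within 500 kb of either receptor gene.

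Peak regions near a gene were frequent in these data. Of 22380 protein-coding genes, 27.1% had a peak region of any list within 500 kb, 13.1% had a region shared by at least 2 lists, and 12.9% had a consensus region. Without replicate 2 the share with a peak region of any list was 15.3%. Both receptor genes had a region of any list and a consensus region in that window, and Cxcr4 alone of the pair had a region shared by 2 lists. A single region in the window, as at both loci, was the most frequent count among genes with any, at 4613 genes. A consensus region within 50 kb, as at Cxcr4, was found for 1.72% of the genes, and within 1 kb, as at Aplnr, for 0.581%. Since the rule used these positions, nothing is read from the shares.

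The positions of all consensus regions are given for reference, and since position chose the receptor loci, nothing is read from them either. Of the 255 consensus regions, 123 lay inside a protein-coding gene, 65 upstream of the nearest such gene and 67 downstream of it. The 65 upstream regions were a median of 39.4 kb from the gene, and 36 of them were nearer than the 47.4 kb at Cxcr4. The downstream regions were a median of 52.1 kb away, and 1 of 67 was nearer to its gene than that of Aplnr. Within 1 kb, a limit set around the Aplnr distance, 3 regions lay downstream of a protein-coding gene. The other two, named after the values were seen, were 110 bp beyond Tbx18, which encodes a T-box factor of the venous pole of the heart, and 781 bp beyond Panx1, which encodes a channel protein. The Tbx18 region had peaks in replicates 1 and 2, with fold enrichments of 6.21 and 9.24, and the Panx1 region had peaks in replicates 2 and 3, with 6.55 and 5.36.

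The receptor regions differed in base composition and shared a sequence word. The Cxcr4 region was 280 bp wide with 50.7% G and C and 3 CpG dinucleotides. The Aplnr region was 301 bp wide with 43.9% G and C and 7 CpG dinucleotides. Over all 255 regions the median width was 346 bp, the median G and C content was 50.4% (quartiles 46.1 and 54.8) and the median number of CpG was 5 (quartiles 2.5 and 8). The Cxcr4 region was therefore close to the median in G and C content and below it in CpG, and 31 of 255 regions had a lower G and C content than the Aplnr region.

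The PBX word TGATTGAT, a site known for PBX homeodomain proteins with their HOX partners, occurred once in each receptor region. Both matches are on the plus strand and are shown here with 12 bases on either side and the word in capitals, at chr1:130536454-130536485 and chr2:84980484-84980515. The flanks are printed because only the word itself was searched for.
Cxcr4: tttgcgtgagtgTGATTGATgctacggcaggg
Aplnr: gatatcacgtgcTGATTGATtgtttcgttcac
At Cxcr4 the centre of the word was 11.5 bp from the summit of replicate 3 and 83.5 bp from that of replicate 2. At Aplnr it was 83.5 bp from the summit of replicate 2. The word was found in 28 of 255 consensus regions (11.0%). In windows of 300 bp it was found in 10.2% of those centred on the regions, and in 1.57% and 1.96% of those 5 kb to the left and right. The word was chosen with earlier results of these data known, so nothing is read from these shares. Of the 28 regions, 16 had peaks of replicates 2 and 3 alone, like Cxcr4, and 2 had a peak in a single list, Aplnr among them. In the 26 regions that also had a replicate 2 peak, the word lay a median of 27.5 bp from the nearest summit of that list, nearer than at either receptor gene.

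Of GGTGTGA and the others first listed, the Cxcr4 region held matches and the Aplnr region held none, an order that stayed with the added word GTGTGA, at 2 and 0 matches, and turned around with the other, AGGTGA, at 0 and 2 matches. The Cxcr4 region held TGACAG once, on the minus strand, 40.5 bp from the summit of replicate 2, and GGTGT once, also on the minus strand, 59 bp from it. Neither match lay within the replicate 3 peak. GGTGTGA, the core of the palindromic T-box site, of which GGTGT is a part, was absent from both regions, and it was found in 1.96% of the 255 regions. In windows of 300 bp its share was 1.96% on the regions and 3.92% and 3.53% at 5 kb to the left and right. Only exact matches of a word were counted here. The study, which searched for motifs with HOMER, reports a T-box motif in most of its consensus peaks. Shares of exact words are not comparable with that result, and whether the regions hold the motif of the study was not tested. TGACAG, which is the core of sites of the MEIS and PREP homeodomain factors, was counted with the T-box words but is not part of GGTGTGA. It was found in 54.5% of the regions. In windows of 300 bp its share was 52.9% on the regions and 20.4% and 19.2% at 5 kb to the left and right. GGTGT occurred in 32.2% of the windows on the regions and in 39.6% and 42.7% of those beside them. TGACAG and TGATTGAT occurred together, as at Cxcr4, in 14 of the 255 regions. The words first listed were also chosen with earlier results of these data known, so nothing is read from their shares.

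The added words GTGTGA and, separately, AGGTGA were searched for after the sequences had been seen. The Cxcr4 region held GTGTGA on the plus strand, sharing 3 bases with TGATTGAT, and again on the minus strand, at 15.5 and 14.5 bp from the summit of replicate 3. The Aplnr region held AGGTGA on the minus strand at 24.5 and 54.5 bp from the summit of replicate 2. These words were frequent in windows of 300 bp on the regions and beside them. GTGTGA occurred in 13.7% of the windows on the regions and in 14.5% and 18.0% of those at 5 kb, and AGGTGA occurred in 16.9% against 16.1% and 14.1%. The map of words places each match beside the summits. A match is a description of the letters and not evidence of binding by a named factor.

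**Figure D3:**
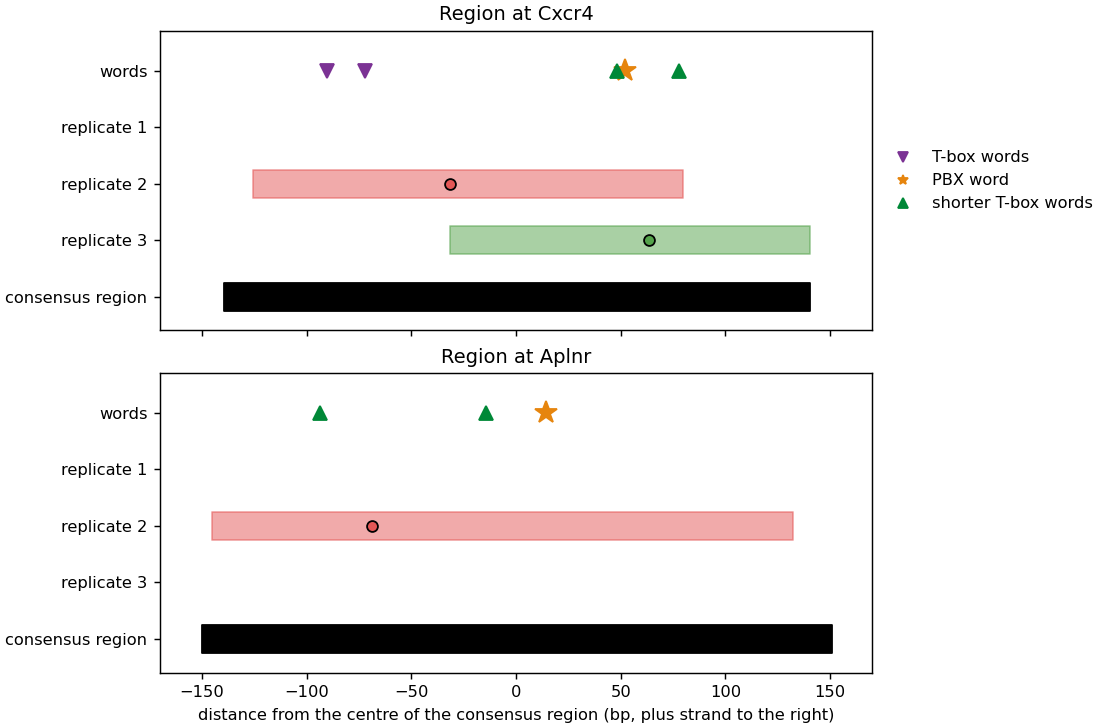
The consensus region (black), the deposited peaks of each replicate (coloured bars, with the summit as a circle) and the word matches (symbols) at Cxcr4 (top) and Aplnr (bottom), by distance in bp from the centre of the consensus region. At Cxcr4 the words first listed, GGTGT and TGACAG, share the T-box symbol and lie on the side of the replicate 2 summit. The PBX word and both matches of the shorter words there lie between 11.5 and 15.5 bp from the replicate 3 summit. At Aplnr the PBX word lies 83.5 bp from the single summit.

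The ligands of the receptors had no consensus region within 500 kb. Cxcl12, the CXCR4 ligand, had its nearest peak region 2139 kb away, found in replicate 2 alone. Apln, which encodes apelin, lies on chromosome X, where the nearest peak was 74741 kb away. Apela, annotated as the transcript Gm10664, had its nearest region at 3777 kb. Ackr3, the gene of the scavenging receptor of CXCL12, annotated as Cxcr7, had a region 225 kb downstream, found in replicate 2 alone with a fold enrichment of 6.16. That region lay nearest to Cops8, a signalosome subunit gene, and was outside the consensus list. Of these 4 genes, 1 had a peak region in the window and 0 had a consensus region, beside 27.1% and 12.9% of all protein-coding genes, so the counts are near the background.

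Among 10 genes of receptor transducers and regulators, 4 had a peak region within 500 kb and 1 had a consensus region, beside 27.1% and 12.9% of all protein-coding genes. Gna13, which encodes a G-protein alpha subunit, had a region 351 kb away with peaks in all 3 lists. Its fold enrichments were low, at 1.61, 1.61 and 1.85 in replicates 1, 2 and 3, and it lay nearest to Axin2, outside the consensus list. Arrb1, which encodes a beta-arrestin that takes activated receptors out of signalling, held a replicate 2 peak inside the gene with a fold enrichment of 5.78. Grk2, a kinase gene of receptor desensitisation annotated as Adrbk1, had a replicate 2 peak at 46.5 kb with a fold enrichment of 5.08, nearest to Pold4. Grk3, a related kinase gene annotated as Adrbk2, had a consensus region at 155 kb that held a replicate 2 peak of 6.25 and lay nearest to Myo18b. The other 6 genes, Gnai1, Gnai2, Gnai3, Arrb2, Grk5 and Grk6, had their nearest regions between 665 and 3473 kb away.

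Among 12 genes for other receptors of vascular and heart cells, 1 had a peak region in the window. This was Agtr1a, an angiotensin II receptor gene, with a consensus region 339 kb away that held a replicate 2 peak of 5.13 and lay nearest to Dusp22. The sphingosine 1-phosphate receptor genes S1pr1, S1pr2 and S1pr3, the endothelin receptor genes Ednra and Ednrb, and Calcrl, F2r, Lpar1, Lpar4, Adgrl4 and Gpr116 had none. For Calcrl, the gene of a receptor of lymphatic and vascular endothelium, the nearest region was the Aplnr region itself, at 715 kb. In all, 6 of the 26 listed genes (23.1%) had a peak region within 500 kb and 2 (7.69%) had a consensus region, beside the 27.1% and 12.9% of all protein-coding genes given above. Of the 26, only Gna13 had a region shared by at least 2 lists in the window, beside 13.1% of all protein-coding genes.

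**Figure D4:**
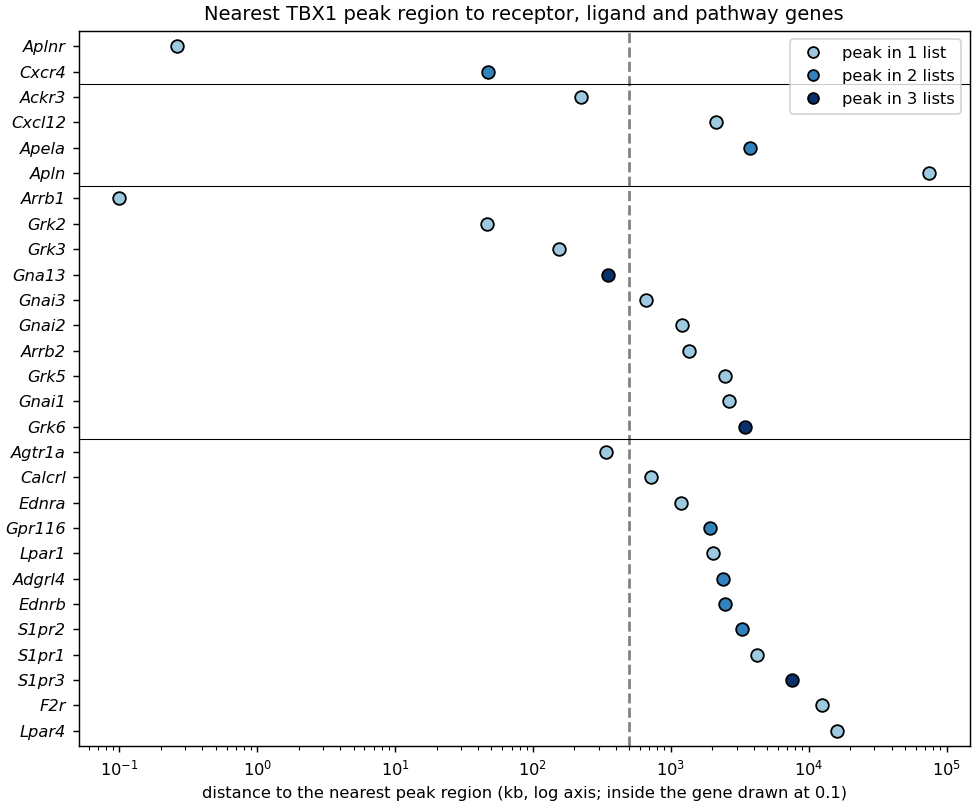
Distance in kb (log axis) from each receptor, ligand, transducer and comparison receptor gene to its nearest TBX1 peak region, grouped by role, with the shade of each point giving the number of lists with a peak; the dashed line marks 500 kb and Arrb1, whose peak is inside the gene, is drawn at 0.1 kb. Apart from the 2 receptor genes chosen for their peaks, 6 of 26 genes lie left of the line.

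Other genes with the most similar pattern were taken as those whose nearest consensus region had the closest percentiles in the 3 lists, among the 2879 protein-coding genes with such a region within 500 kb. For Cxcr4 the nearest were Gria1, a glutamate receptor gene, with the region inside it, and Fam114a2, 178 kb from that same region. They were joined by BC052040 with a region 190 kb upstream. All had fold enrichments of 7.82 in replicate 2 and 6.07 in replicate 3, identical to those at Cxcr4, and 3 of the 114 regions with these lists had this pair of values, the Cxcr4 region included. For Aplnr the nearest were Has2, the hyaluronan synthase gene of the heart cushions, with a region 74.7 kb upstream, and Slc22a22, at 474 kb from that same region. Its replicate 2 peak had a fold enrichment of 4.53 and differed from the Aplnr peak by 1.39 percentile points. The third was Slc2a12, a sugar transporter gene, with a replicate 2 peak of 3.92 inside the gene and a difference of 3.64 points.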

How the data were processed

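Per the paper's methods, the authors cleaned reads with cutadapt and Trim Galore, mapped them to mm9 with Bowtie2 2.3.4, dropped discordant, duplicate and multi-mapping pairs, and ran MACS2 2.1.2.1 on each replicate against input. Consensus regions came from bedtools 2.29, and blacklisted regions were then removed. The deposited fold enrichment is a ratio, and the deposited p-value and q-value are −log10 values. The files do not hold reads per peak, so no counting error could be given for the folds.

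Peaks overlapping by at least 1 bp were joined, and distances were taken from gene bodies of GENCODE vM1. Each of the 1088 peaks fitted the chromosome lengths of NCBIM37 (mm9). Percentiles are mid-ranks within a list. Words were counted on both strands. Scripts ran under Python 3.11.15, with sequences read by pyfaidx 0.9.0.4, quantiles from numpy 2.4.6 and figures by matplotlib 3.10.9, and functions were tested on simulated data. Whether an alternative moved a share was judged by its 95% exact binomial interval over genes (scipy 1.17.1). This takes genes as independent, although neighbouring genes can share a region. The Aplnr percentile was judged by such an interval over the 646 peaks of its list, and that of Cxcr4 by its SD. Neither binomial interval is a spread between replicates.

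The members, gene lists, words and rule for named genes (members, listed pathway genes, neighbours and the 3 most similar genes of each member) were chosen with earlier results of these data known. With 1 group there was no comparison between conditions. Nothing says that replicates share embryos or litters. Alternatives were other windows (100 and 1000 kb), start sites in place of gene bodies, stricter q-values (0.01 and 1e-05), other rules for joining peaks, other ranks and leaving out each replicate.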

Additional observations from a re-analysis of the deposited data

How the results depend on the processing

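Of 88 alternatives run, 62 left the value within the interval set for it or within 1.5 times a count, and 26 moved it. The number of peak regions within 500 kb was 1 at both genes under windows of 100 and 1000 kb, distance from the start site and q-values under 0.01. For Aplnr it fell to 0 at q-values under 1e-05, as did the number of lists with a peak. Leaving out a replicate gave 0 to 1 peak regions and 0 to 1 lists at Aplnr, with 0 without replicate 2. At Cxcr4, leaving out a replicate gave 1 to 2 lists and 0 to 1 regions in at least 2 lists, with 0 without replicate 2 or 3. Leave-one-out percentiles ranged from 46.3 to 73.7 at Cxcr4, and without replicate 2 Aplnr had no percentile to give. With 0 where a list had no peak, the mean percentile was 40.0 at Cxcr4 and 6.27 at Aplnr, and by −log10 q that of Aplnr was 14.3.

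With 200 bp added on each side, the words first listed, TGACAG included, numbered 3 at Cxcr4 and 1 at Aplnr. Of the shorter words, chosen after the sequences were seen, GTGTGA numbered 2 at Cxcr4 and 0 at Aplnr, and the other, AGGTGA, numbered 0 and 2. The share of protein-coding genes with a peak region was 7.27% at 100 kb, 43.9% at 1000 kb, 26.2% from start sites, 25.8% over all annotated genes, and 26.4% and 22.3% at q-values under 0.01 and 1e-05. Leaving out a replicate gave 15.3% to 27.0%, the lowest without replicate 2. For consensus regions these were 3.07%, 22.5%, 12.4% and 11.4% over the windows of 100 and 1000 kb, start sites and all genes. The depth behind each peak is not known here, and a list without a peak does not show that binding was absent. No paired analysis was possible because all samples belong to 1 group.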
